A study of Mus musculus with 20 samples.

Results

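The genes carried by mouse mitochondrial DNA were followed in 20 libraries of polyadenylated RNA from mammary tumors and mammary organoids. Every gene on the mitochondrial chromosome, whose symbols begin with mt-, was taken. These were 37 of the 45318 genes in the count tables, namely 13 protein coding, 2 ribosomal RNA and 22 transfer RNA genes. All mice were of the FVB strain. MMTV-PyMT tumors, in which the MMTV promoter drives the polyoma middle T antigen in mammary epithelium, gave 3 libraries of organoids after 6 days of culture (PyMT organoids day 6). They also gave 2 libraries with no day in the title but a culture label of 6 days (PyMT organoids undated), 3 of organoids at 0 days (PyMT organoids day 0) and 3 of tumor sections (PyMT sections). MMTV-Neu-NDL tumors, which express an activated Neu receptor from the same promoter, gave 3 libraries of organoids at 6 days (Neu-NDL organoids). MMTV-Cre;Flox-Neo-Neu-NT tumors, in which Cre made from that promoter recombines a floxed neo cassette and a different active form of Neu is expressed, were cut into sections for 3 libraries (Neu-NT sections). Wild type mammary gland gave 3 libraries of organoids at 6 days (WT organoids). Organoids are small pieces of tissue that were kept in Matrigel, a gel of basement membrane proteins, and given FGF2, a fibroblast growth factor, and RNA of the 0 day samples was taken as soon as they had been prepared. Sections were 30 µm thick and frozen, and the labels give them no culture time. A section therefore differs from a WT organoid in tissue state, culture and genotype at the same time. Whether replicates are different mice is not stated in the labels, so the p-values describe only how much these samples scatter, which may be technical.

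Mitochondrial DNA is a small circle present in many copies per cell, and nearly all of its RNA is made as long precursors from both strands. Transfer RNAs lie between the other genes, and their excision frees the ribosomal RNAs and messenger RNAs. The messenger RNAs encode subunits of respiratory complexes I, III and IV and of the ATP synthase. Most of them carry short poly(A) tails, as do the ribosomal RNAs to a smaller extent. The ribosomal RNAs build the small (mt-Rnr1) and the large (mt-Rnr2) subunit of the mitochondrial ribosome. Copies of mitochondrial DNA also lie in nuclear chromosomes, and the annotation lists some of them as genes.

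Most of the protein coding genes have a near-identical copy on chromosome 1, and this sets what can be counted, so these sequences come first. The GENCODE M21 annotation of mm10 lists 7 such copies side by side at chr1:24611535-24616197 on the minus strand, a stretch of 4663 bases. Gm28661 matched mt-Co2 at all 681 aligned bases, Gm10925 matched mt-Atp6 at 678 of 678, Gm28437 matched mt-Co3 at 783 of 783 and Gm10222 matched mt-Nd4l at 294 of 294. Gm28439 matched the first 876 bases of mt-Nd4. Gm28438 differed from mt-Nd3 at 1 of 345 bases, T3C, and Gm29216 from mt-Co1 at 1 of 483, A1066T (the mitochondrial base, the position from 1 at the 5′ end of the mitochondrial gene, then the base of the copy). The first 60 bases of a gene and its copy are shown for these cases, 5′ to 3′ from the GENCODE M21 transcripts, with the differing base of mt-Nd3 in capitals.
mt-Nd3: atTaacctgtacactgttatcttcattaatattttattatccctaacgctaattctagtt
Gm28438: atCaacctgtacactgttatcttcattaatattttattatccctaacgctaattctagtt
mt-Co2: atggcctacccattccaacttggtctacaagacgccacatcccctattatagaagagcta
Gm28661: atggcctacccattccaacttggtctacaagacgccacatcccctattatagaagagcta
A read that falls within the mt-Co2 stretch carries nothing by which it could be assigned to one of the 2 places.

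Counts on the protein coding genes fell into 2 ranges. The 7 genes mt-Nd1, mt-Nd2, mt-Nd4, mt-Nd5 and mt-Nd6 (complex I subunits), mt-Co1 (the catalytic subunit of complex IV) and mt-Cytb (cytochrome b of complex III) had medians over the 20 libraries between 266 and 8565 CPM, counts scaled to a common library size. The other 6, mt-Co2 and mt-Co3 (complex IV), mt-Atp6 and mt-Atp8 (ATP synthase), and mt-Nd3 and mt-Nd4l (complex I), lay between 0.0722 and 12.5 CPM in every library. In 5 of these 6, nearly every 50-base window of the gene also occurs in an annotated transcript of another chromosome: 635 of 635 windows for mt-Co2, 629 of 632 for mt-Atp6, 734 of 735 for mt-Co3, 293 of 299 for mt-Nd3 and 245 of 248 for mt-Nd4l. In contrast, 0 windows of mt-Cytb, mt-Nd1, mt-Nd6 and mt-Rnr1 do, against 16 of 1533 for mt-Rnr2, 135 of 1775 for mt-Nd5 and 81 of 989 for mt-Nd2. mt-Co1 (765 of 1496) and mt-Nd4 (827 of 1329) lie between these, so part of their length is shared. The sixth low gene, mt-Atp8, shares 0 of its 155 windows with an annotated transcript. Between the copies Gm28661 and Gm10925, however, chromosome 1 has 233 unannotated bases, and the same stretch of the mitochondrial genome between mt-Co2 and mt-Atp6 is also 233 bases long and holds the first 161 bases of mt-Atp8. Reads that aligned to several places were 10.7 to 16.3% of the reads of a library and are not among the gene counts. Their part in the low values was not tested.

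**Figure D1:**
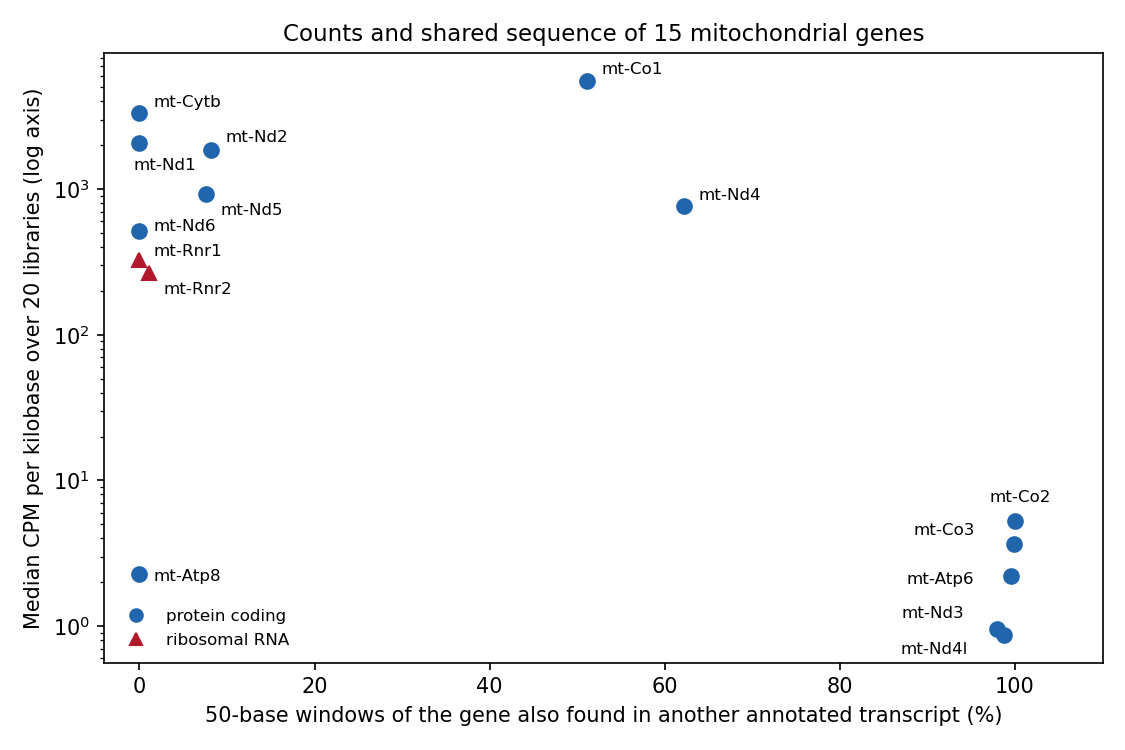
Percent of the 50-base windows of each mitochondrial mRNA and rRNA gene found in another annotated transcript (horizontal axis) against the median CPM per kilobase of gene over 20 libraries (vertical log axis). The 5 genes with 98.0 to 100% of windows elsewhere lie between 0.870 and 5.27 CPM per kilobase, and mt-Atp8, with 0%, lies at 2.26.

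The copies themselves had few counts. Over all 20 libraries together mt-Co2 had 2309 counts and its copy Gm28661 had 1813, mt-Co3 had 1767 and Gm28437 had 1378, and mt-Atp6 had 1179 and Gm10925 had 1653. The pair that differs at T3C stood out from these: mt-Nd3 had 203 counts and Gm28438 had 8803, between 50 and 1762 in a library. The 14 annotated nuclear copies that were listed summed came to 16.9 to 123 CPM per library, with the highest sum in PyMT organoids undated replicate 1. Where a gene and its copy are identical, a read of one cannot be told apart from a read of the other. The levels of mt-Co2, mt-Co3, mt-Atp6 and mt-Nd4l are therefore uncertain, and so is any difference in them. Within the stretch that mt-Nd3 shares with its copy, only a read over the differing base can be told apart. Which base these FVB mice carry there was not tested, so the level of mt-Nd3 is uncertain too. For mt-Atp8 the likeness to a copy was not tested, because the unannotated stretch of chromosome 1 was not read here.

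Transfer RNAs were nearly absent from these libraries. Of the 22 genes, 19 had 0 counts in every library, and mt-Tn and mt-Tc had 2 and 9 counts in all libraries together. The exception was mt-Tp, the transfer RNA for proline (chrM:15356-15422, minus strand), with 19694 counts in all and 7.12 to 64.2 CPM. It lies on the minus strand, as mt-Nd6 does (chrM:13552-14070). The strand setting of the counting is not given in the sources used here, so RNA of the opposite strand cannot be told apart from these 2 genes. Its sequence is shown because it is the only transfer RNA whose counts allowed a test, and beside it stand the last 60 bases of both ribosomal RNAs, which were called in the same comparison.
mt-Tp: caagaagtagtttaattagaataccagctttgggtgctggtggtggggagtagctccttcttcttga
mt-Rnr1: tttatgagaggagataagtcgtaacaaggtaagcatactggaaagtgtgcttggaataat
mt-Rnr2: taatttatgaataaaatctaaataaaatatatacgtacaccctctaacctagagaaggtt
The longest run of A inside mt-Rnr1 is 5 bases and inside mt-Rnr2 7 bases, against 2 bases in mt-Tp. Of the 37 genes, 16 passed the filter on low counts and 21, all of them transfer RNAs, did not. The 9 genes over 100 CPM in the median (7 mRNAs and both rRNAs) held 99.8% of the 13488966 mitochondrial counts.

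**Figure D2:**
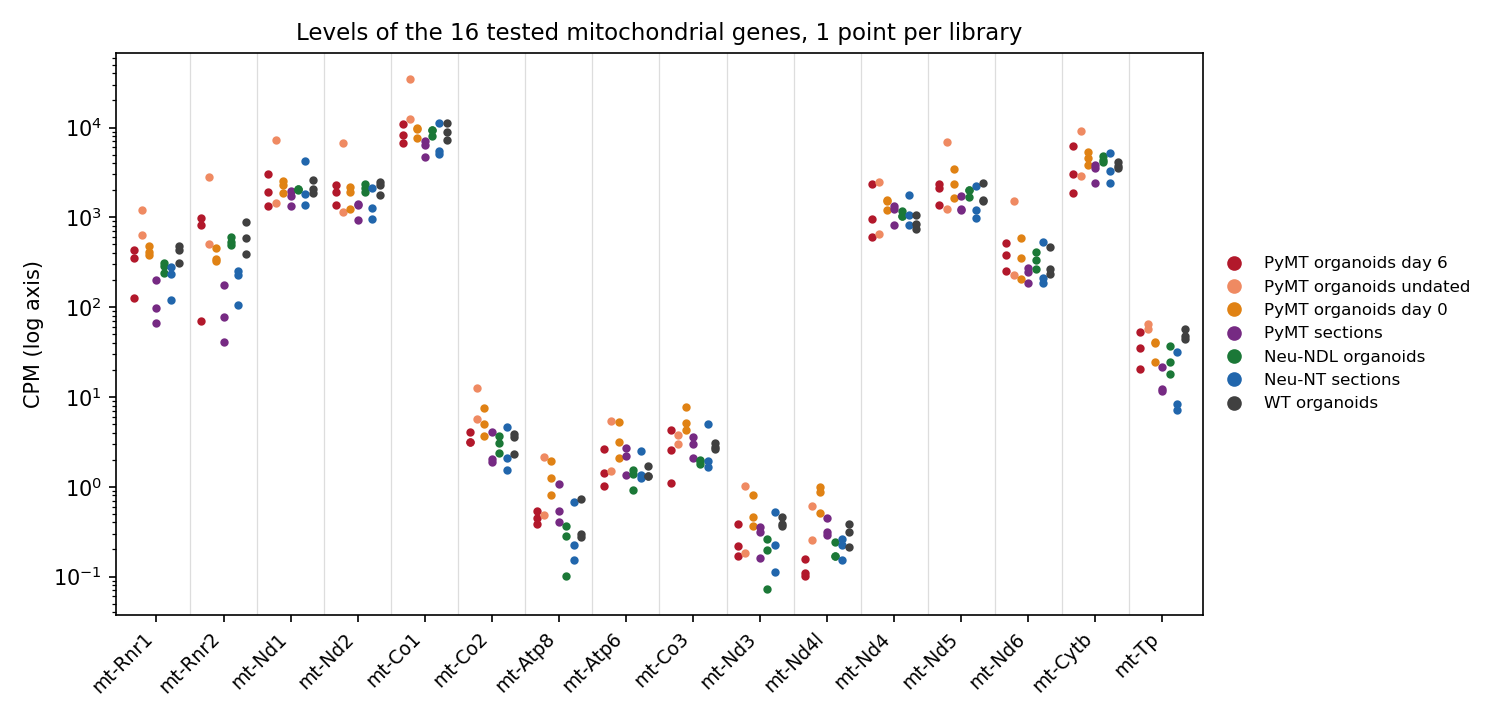
CPM on a log axis (vertical) of the 16 tested mitochondrial genes in order along the chromosome (horizontal), 1 point per library, coloured by group. The 6 low mRNAs lie between 0.0722 and 12.5 CPM and mt-Tp between 7.12 and 64.2 CPM, a range that the lowest mt-Rnr2 value, 40.5 CPM, falls into.

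The libraries held 17478357 to 48341438 reads counted on genes. Reads outside genes were 4.77 to 10.8% of a library and ambiguous ones 4.04 to 6.54%. The luminal marker list (10 genes such as Krt8 and Epcam) summed to 3965 to 10430 CPM in every library, and none of the 10 had 0 counts throughout a group. Of the libraries, 2 stood apart by other markers. PyMT organoids day 6 replicate 3 had 118 CPM summed over 5 erythroid markers and 2740 CPM over 7 fibroblast markers, against 0.302 to 0.705 and 51.8 to 158 CPM in the other 4 libraries of PyMT organoids cultured for 6 days. Its 10 basal markers summed to 109 CPM, against 1258 to 7447 CPM in those 4. Neu-NT sections replicate 3 had 2886 CPM of basal markers, against 148 and 106 CPM in replicates 1 and 2. Neu-NDL organoids replicate 1 had 2895 CPM of fibroblast markers, against 154 and 192 CPM in replicates 2 and 3. Results that rest on the first 2 of these libraries are given with and without them. In bulk RNA, fewer cells of a type and less RNA per cell cannot be told apart.

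The mitochondrial share of all gene counts overlapped between the groups of each of the 9 comparisons made. It was 1.93, 1.49 and 2.63% in PyMT organoids day 6, 6.05 and 1.97% in PyMT organoids undated and 2.79, 2.47 and 1.88% in PyMT organoids day 0. It was 1.29, 1.88 and 1.74% in PyMT sections, 2.23, 2.28 and 2.09% in Neu-NDL organoids, 1.54, 1.23 and 2.37% in Neu-NT sections and 1.85, 2.66 and 2.05% in WT organoids. A single library, PyMT organoids undated replicate 1, lay well above the other 19, which spanned 1.23 to 2.79%.

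The groups were then compared over libraries. The share averaged 2.20 ± 0.1002% in Neu-NDL organoids and 2.19 ± 0.425% in WT organoids (SD, n = 3 each), a difference of 0.0119 percentage points (exact permutation test, 2-sided, p = 0.9). The lowest mean was that of PyMT sections, 1.64 ± 0.306% (n = 3), a difference of -0.549 points from WT organoids (exact p = 0.2). The 5 libraries of PyMT organoids at 6 days averaged 2.81 ± 1.85%, against 2.19 ± 0.425% in WT organoids (exact p = 0.821), and without undated replicate 1 the difference from WT organoids was -0.183 points (exact p = 0.571). None of the 9 comparisons passed, with adjusted p between 0.9 and 1 (Benjamini-Hochberg over the 9 comparisons). With 3 against 3 libraries the smallest exact p is 0.1, so such a comparison cannot pass, and with 5 against 3 it is 0.0179.

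**Figure D3:**
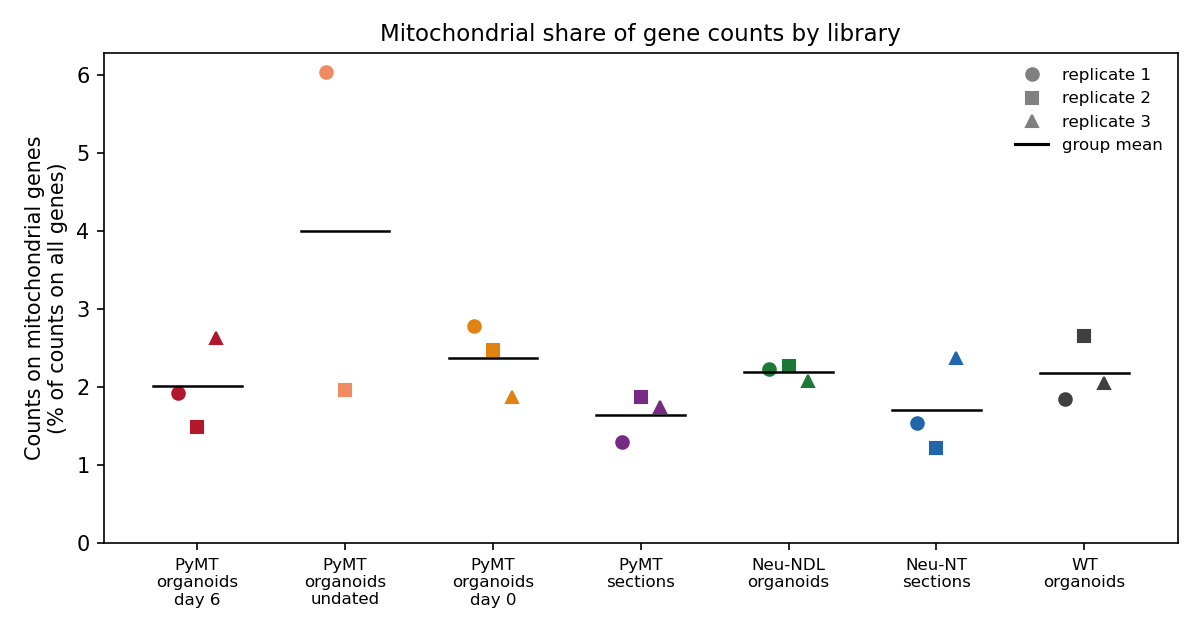
Counts on the 37 mitochondrial genes as a percent of counts on all genes (vertical axis) for each library, by group (horizontal axis); marks give the replicate number and lines the group mean. PyMT organoids undated replicate 1 is at 6.05% and all other libraries lie between 1.23 and 2.79%.

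Among the well-counted mRNAs the order of counts was nearly the same in every group. As given above, parts of mt-Co1 and mt-Nd4 also occur in other transcripts, and reads aligned to several places were not counted. The order and the parts below therefore describe counts on these genes and may not be those of the RNAs, and the low mRNAs are not ranked. Per kilobase of gene, the order mt-Co1, mt-Cytb, mt-Nd1, mt-Nd2 led in all 7 groups, while mt-Nd4, mt-Nd5, mt-Nd6 and both rRNAs changed places within ranks 5 to 9. In WT organoids mt-Co1 had 5931 ± 1349, mt-Cytb 3323 ± 270, mt-Nd1 2292 ± 406 and mt-Nd2 2096 ± 355 CPM per kilobase (SD, n = 3). The last 2 of these do not differ beyond their spread. As parts of the mRNA counts, mt-Co1 made up 43.9 ± 5.41%, mt-Cytb 19.5 ± 2.99%, mt-Nd1 10.8 ± 1.59%, mt-Nd5 9.31 ± 1.53%, mt-Nd2 9.03 ± 1.495%, mt-Nd4 5.82 ± 1.55% and mt-Nd6 1.66 ± 0.331% (SD over 20 libraries).

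The most counted of them, mt-Co1, had 8168, 6743 and 10980 CPM in PyMT organoids day 6, 35100 and 12290 in PyMT organoids undated and 9865, 9724 and 7654 in PyMT organoids day 0. It had 4651, 6341 and 7080 CPM in PyMT sections, 9382, 9274 and 8121 in Neu-NDL organoids, 5421, 5128 and 11210 in Neu-NT sections and 7186, 11340 and 8963 in WT organoids. Both undated libraries lie above all WT organoids and all PyMT sections lie below them, while the other groups overlap WT organoids. Cytochrome b (mt-Cytb) ranged over 1866 to 6236 CPM in PyMT organoids day 6, 2890 to 9138 in PyMT organoids undated, 3806 to 5391 in PyMT organoids day 0 and 2386 to 3786 in PyMT sections. It ranged over 4152 to 4793 CPM in Neu-NDL organoids, 2423 to 5180 in Neu-NT sections and 3557 to 4148 in WT organoids. The group ranges of mt-Cytb overlap that of WT organoids in all but Neu-NDL organoids, which lie just above it.

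The ratio of mt-Co1 to mt-Cytb counts was read off after the values were seen and is given as a description. It was 2.67, 3.62 and 1.76 in PyMT organoids day 6, 3.84 and 4.25 in PyMT organoids undated, 1.83, 2.14 and 2.01 in PyMT organoids day 0, and 2.02, 2.73 and 2.42 in WT organoids. In PyMT sections it lay between 1.78 and 1.95, in Neu-NDL organoids between 1.87 and 2.26 and in Neu-NT sections between 1.67 and 2.17. The 3 highest ratios all came from cultured PyMT organoids, while the lowest of that set, 1.76, came from day 6 replicate 3, one of the libraries that stood apart. As given above, 765 of 1496 windows of mt-Co1 occur in other transcripts and 0 of mt-Cytb do.

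The minus strand mRNA mt-Nd6 held a small part of the mRNA counts, and groups overlapped. It averaged 1.93 ± 0.111% in PyMT organoids day 6 (n = 3), 1.68 ± 0.753% in PyMT organoids undated (n = 2), 1.66 ± 0.567% in PyMT organoids day 0, 1.56 ± 0.0420% in PyMT sections, 1.60 ± 0.314% in Neu-NDL organoids, 1.67 ± 0.267% in Neu-NT sections and 1.53 ± 0.311% in WT organoids (SD, n = 3 each). The exact permutation p was at least 0.375 in all 9 comparisons. Across the 20 libraries, which share scaling and depth, log2 CPM of the 7 well-counted mRNAs correlated with a median Pearson r of 0.86 over 21 pairs, and the rRNAs with these mRNAs with a median of 0.50 over 14 pairs. The 2 rRNAs correlated with each other at 0.91.

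Both ribosomal RNAs were lower in PyMT sections than in WT organoids. mt-Rnr1 (ENSMUSG00000064337.1, chrM:70-1024) had 66.7, 199 and 96.5 CPM in PyMT sections, against 313, 431 and 479 CPM in WT organoids. mt-Rnr2 (ENSMUSG00000064339.1, chrM:1094-2675) had 40.5, 175 and 77.8 CPM in PyMT sections, against 392, 898 and 587 CPM in WT organoids. The groups do not overlap for either gene. In edgeR's quasi-likelihood test, mt-Rnr1 was 3.38-fold lower (log2 -1.76 ± 0.46 SE, adjusted p = 0.0244) and mt-Rnr2 6.39-fold lower (log2 -2.68 ± 0.79 SE, adjusted p = 0.0382).

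The transfer RNA mt-Tp moved with them. It had 12.2, 21.4 and 11.7 CPM in PyMT sections, against 44.0, 47.6 and 57.5 CPM in WT organoids, with no overlap. It was 3.30-fold lower (log2 -1.72 ± 0.49 SE, adjusted p = 0.035). So 3 of the 16 tested members fell and 0 rose in PyMT sections relative to WT organoids, where 6.05% of all tested genes were lower and 6.45% were higher. The 7 well-counted mRNAs were not called, with log2 fold changes of -0.82 to 0.36 and a smallest adjusted p of 0.239. In a fit of these 6 libraries alone, however, mt-Nd2 was called lower as well (-0.82, adjusted p = 0.0328). That fit called more genes in all, 2392 of 16892 tested genes lower and 2478 higher. Leaving out PyMT sections replicate 2 kept all 3 calls with larger log2 fold changes (mt-Rnr1 -2.33, mt-Rnr2 -3.42 and mt-Tp -2.07), leaving out WT organoids replicate 1 kept that of mt-Rnr1, and leaving out any other of the 6 libraries (WT organoids replicates 2 and 3, PyMT sections replicates 1 and 3) left 0. The log2 fold changes are as large without the 2 libraries that stood apart (-1.76, -2.68 and -1.73), which are in neither group.

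Other cell markers moved with this comparison. The 5 erythroid markers summed to 81.3 to 146 CPM in PyMT sections and 0.512 to 0.594 CPM in WT organoids, and the 7 fibroblast markers to 1956 to 5953 and 448 to 822 CPM. The 10 basal and myoepithelial markers summed to 92.4 to 331 CPM in PyMT sections and 2722 to 3498 CPM in WT organoids. The 7 endothelial markers summed to 114 to 183 CPM in PyMT sections and 11.5 to 58.6 CPM in WT organoids, and the 8 myeloid markers to 486 to 759 and 167 to 256 CPM. The 7 skeletal muscle markers summed to 10.8, 623 and 23.6 CPM in PyMT sections and 58.2, 59.1 and 229 CPM in WT organoids, with the highest value in PyMT sections replicate 2, the section with the highest rRNA levels. In WT organoids 4 of the 5 erythroid markers, the globin genes Hbb-bs, Hbb-bt, Hba-a1 and Hba-a2, had 0 counts in all 3 libraries, and in PyMT sections 1 of 5, Hba-a2, did. No marker of the other 5 lists had 0 counts throughout either group. Their part in the rRNA difference was not tested.

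In Neu-NT sections mt-Tp was lower as well. It had 8.28, 7.12 and 31.6 CPM in Neu-NT sections, against 44.0, 47.6 and 57.5 CPM in WT organoids, 3.18-fold lower without overlap (log2 -1.67 ± 0.49 SE, adjusted p = 0.028). The highest of the Neu-NT values, 31.6, is that of replicate 3, which stood apart. mt-Rnr1 had 234, 119 and 282 CPM in Neu-NT sections and mt-Rnr2 had 229.5, 105 and 253 CPM, all below the WT organoid values given above, with log2 fold changes of -0.95 (SE 0.45, adjusted p = 0.15) and -1.67 (SE 0.76, adjusted p = 0.134). Thus 1 of 16 members fell and 0 rose, where 8.47% of all tested genes were lower and 10.5% were higher. Leaving out any 1 of the 6 libraries other than Neu-NT sections replicate 3 ended the call of mt-Tp, with adjusted p from 0.0508 to 0.107. So did a fit of these 6 libraries alone (adjusted p = 0.0925). The latter fit called mt-Rnr2 lower instead (-1.68, adjusted p = 0.0414), with 1469 of 16369 tested genes lower. Without the 2 libraries that stood apart, a fit chosen after seeing the data, 3 members were lower: mt-Tp (-2.69, adjusted p = 0.000165), mt-Rnr1 (-1.21, adjusted p = 0.045) and mt-Rnr2 (-1.91, adjusted p = 0.0489). In that fit 2656 of 18591 tested genes were lower, so 3 of 16 members is near the background. This comparison and the others with WT organoids share the same 3 control libraries. Here the 5 erythroid markers summed to 29.6 to 118 CPM in Neu-NT sections and 0.512 to 0.594 CPM in WT organoids, and the basal markers to 106 to 2886 and 2722 to 3498 CPM. Endothelial markers summed to 82.3 to 134 CPM in Neu-NT sections and 11.5 to 58.6 CPM in WT organoids, and myeloid markers to 536 to 1285 and 167 to 256 CPM. Their part was not tested.

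Expressed as a part of mitochondrial counts, which does not use the library scaling, the rRNAs were also lowest in sections. mt-Rnr1 and mt-Rnr2 together made up 6.69, 8.44 and 0.698% in PyMT organoids day 6, 5.54 and 5.42% in PyMT organoids undated and 3.11, 3.65 and 3.83% in PyMT organoids day 0. They made up 0.921, 2.27 and 1.00% in PyMT sections, 3.56, 4.06 and 3.72% in Neu-NDL organoids, 3.15, 1.85 and 1.92% in Neu-NT sections and 3.99, 5.13 and 5.13% in WT organoids. PyMT sections, Neu-NT sections and PyMT organoids day 0 each lay below all WT organoids, and PyMT sections lay below PyMT organoids day 0. Among cultured PyMT organoids, day 6 replicate 3 alone lay below 5%, and its share is below that of every section.

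The mean rRNA share was 1.40 ± 0.758% in PyMT sections, 2.31 ± 0.734% in Neu-NT sections and 3.53 ± 0.377% in PyMT organoids day 0, against 4.75 ± 0.658% in WT organoids (SD, n = 3 each). Each of these 3 differences from WT organoids reached the smallest exact permutation p that 3 against 3 allows, 0.1, with an adjusted p of 0.225 over 9 comparisons, so none passed. The 5 libraries of PyMT organoids at 6 days averaged 5.36 ± 2.87%, against 3.53 ± 0.377% in PyMT organoids day 0 (exact p = 0.393). Without day 6 replicate 3, the difference from day 0 was 2.99 points, with an exact unadjusted p of 0.0286, the smallest for 4 against 3. The same library mattered in the comparison with Neu-NDL organoids (3.78 ± 0.259%). There the exact unadjusted p was 0.446 with it and 0.0286 without it, for a difference of 2.74 points. The p-values without the library were not adjusted over the 9 comparisons, so neither comparison is counted as passing. That library's erythroid, fibroblast and basal sums are given above. It also had 166 CPM of endothelial markers, against 5.05 to 6.57 CPM in the other 4 libraries of PyMT organoids at 6 days, and 444 CPM of myeloid markers, against 97.0 to 267 CPM. Their part in the rRNA share was not tested.

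The transfer RNA share, nearly all mt-Tp, averaged 0.152 ± 0.0187% in PyMT organoids day 0, 0.101 ± 0.0315% in PyMT sections, 0.122 ± 0.0430% in Neu-NDL organoids and 0.0762 ± 0.0325% in Neu-NT sections, against 0.237 ± 0.0478% in WT organoids (SD, n = 3 each). These 4 groups lay below all WT organoids, each with an exact permutation p of 0.1, the smallest possible (adjusted p = 0.18). PyMT organoids cultured for 6 days overlapped WT organoids, with 0.0732 to 0.271% in the first and 0.184 to 0.277% in WT organoids (exact p = 0.429).

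**Figure D4:**
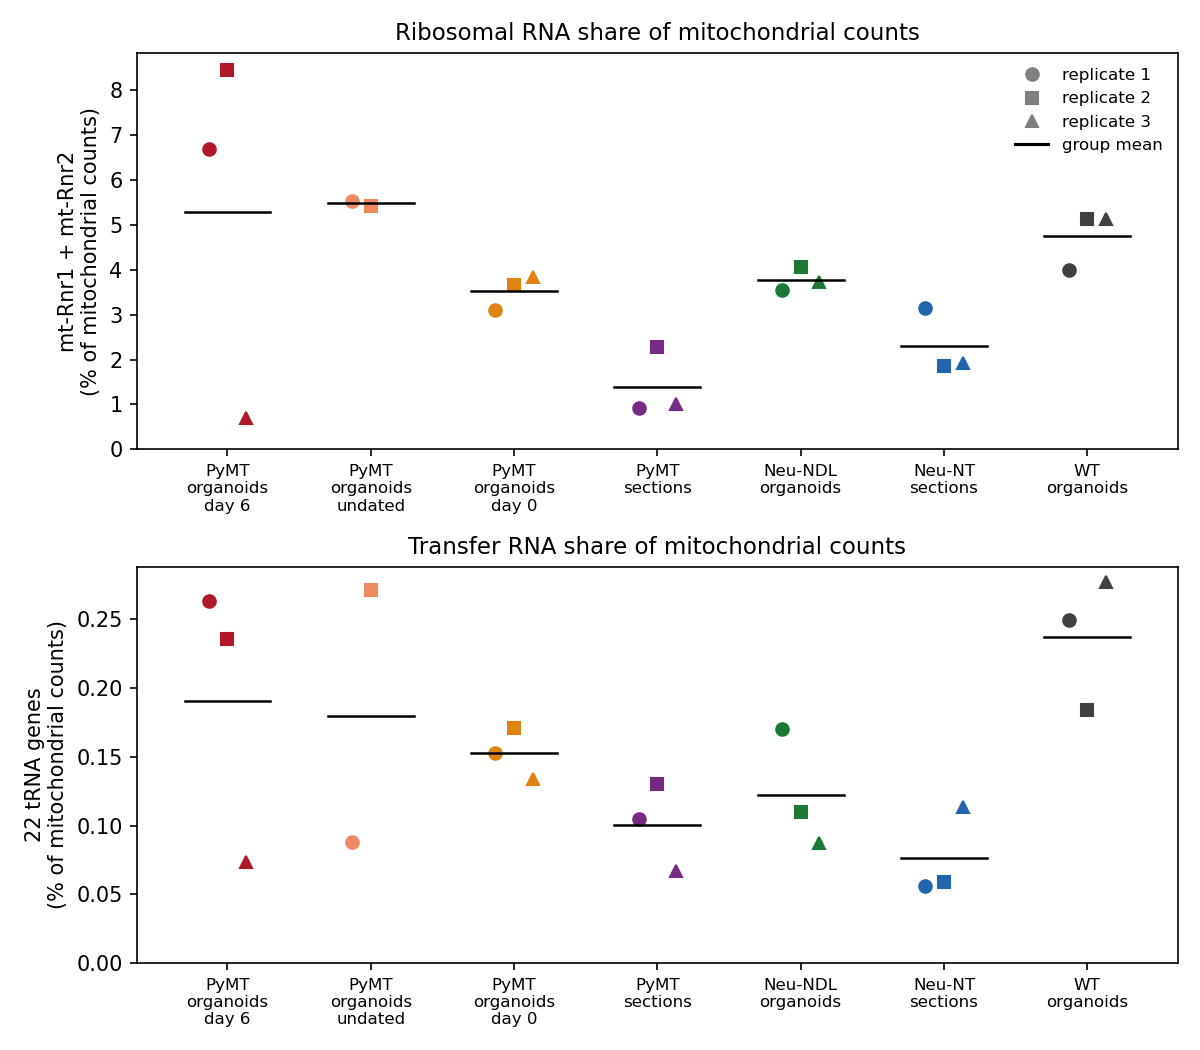
Counts on mt-Rnr1 and mt-Rnr2 (upper panel) and on the 22 tRNA genes (lower panel) as a percent of mitochondrial counts (vertical axes), for each library by group; marks give the replicate number and lines the group mean. The rRNA share is 0.921 to 2.27% in PyMT sections and 3.99 to 5.13% in WT organoids, and PyMT organoids day 6 replicate 3 is at 0.698%.

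The balance of the 2 rRNAs also varied, which is given without a test because it was read off after the values were seen. The ratio of mt-Rnr2 to mt-Rnr1 counts was 2.82, 1.89 and 0.567 in PyMT organoids day 6, 2.37 and 0.796 in PyMT organoids undated, and 0.716, 1.10 and 0.857 in PyMT organoids day 0. It was 0.608, 0.880 and 0.806 in PyMT sections, 2.26, 1.95 and 1.71 in Neu-NDL organoids, 0.980, 0.885 and 0.898 in Neu-NT sections and 1.25, 2.08 and 1.22 in WT organoids. Every uncultured library lay at or below 1.10, while the cultured libraries lay at or above 1.22 in all cases but day 6 replicate 3 and undated replicate 2.

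PyMT organoids day 0 were compared with PyMT sections, which the labels set apart by the preparation of organoids from the tumor. mt-Rnr1 had 479, 410.0 and 379.5 CPM in PyMT organoids day 0, against 66.7, 199 and 96.5 CPM in PyMT sections, and mt-Rnr2 had 343, 452 and 325 CPM, against 40.5, 175 and 77.8 CPM. Both are higher in every day 0 library than in any section. mt-Rnr1, the member with the smallest p, was 3.50-fold higher in edgeR (log2 1.81 ± 0.46 SE, adjusted p = 0.151), so 0 of 16 members were called higher or lower, with 5 at an unadjusted p under 0.05. Over all tested genes 0.428% were called higher and 0.016% lower. DESeq2 called mt-Rnr1 (adjusted p = 0.0114), and so did edgeR without the 2 libraries that stood apart (adjusted p = 0.0281). Those fits called 152 of 18698 and 170 of 18591 tested genes higher. In the main fit the median log2 fold change was 0.91 over the 16 members and -0.02 over all genes tested. The 10 immediate-early genes of the dissociation list (such as Fosb, Fos and Jun), all of which were called higher, summed to 11170 to 17920 CPM in PyMT organoids day 0 and 444 to 564 CPM in PyMT sections. The fibroblast markers summed to 710 to 976 CPM in PyMT organoids day 0 and 1956 to 5953 CPM in PyMT sections, the myeloid markers to 314 to 479 and 486 to 759 CPM, and the erythroid markers to 25.3 to 38.3 and 81.3 to 146 CPM, all without overlap. Their part in the rRNA levels was not tested.

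In the comparison of PyMT organoids day 0 with WT organoids, the low gene mt-Nd4l was called. It had 0.883, 0.505 and 0.993 CPM in PyMT organoids day 0 (17, 10 and 28 counts), against 0.310, 0.384 and 0.215 CPM in WT organoids (12, 18 and 7 counts). The groups do not overlap, and the gene was 2.59-fold higher (log2 1.37 ± 0.43 SE, adjusted p = 0.0497). So 1 member rose and 0 fell, where 5.54% of all tested genes were higher and 5.73% lower. The call lies at the threshold and was lost on leaving out any 1 of the 6 libraries, with adjusted p from 0.0576 to 0.173. The annotated copy of mt-Nd4l is identical over 294 bases and the gene overlaps mt-Nd4 by 7 bases, so the value is uncertain. With only these 6 libraries in the fit, 5 members were called higher (mt-Atp8, mt-Atp6, mt-Co3, mt-Nd4l and mt-Nd4), of which the first 4 are low genes. That fit also called more genes in all, 2794 of 16484 tested genes higher and 2817 lower. The basal markers summed to 215 to 474 CPM in PyMT organoids day 0 and 2722 to 3498 CPM in WT organoids, the endothelial markers to 105 to 227 and 11.5 to 58.6 CPM, and the dissociation genes to 11170 to 17920 and 387 to 543 CPM. Their part was not tested.

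The same gene was called in the opposite direction after culture. mt-Nd4l had 0.109, 0.102 and 0.155 CPM in PyMT organoids day 6 and 0.604 and 0.258 CPM in PyMT organoids undated, against 0.883, 0.505 and 0.993 CPM in PyMT organoids day 0. The ranges overlap through undated replicate 1. In the 6 day set it was 3.41-fold lower than at day 0 (log2 -1.77 ± 0.39 SE, adjusted p = 0.0171), so 1 member fell and 0 rose, where 4.12% of all tested genes were lower and 4.1% higher. Day 6 and day 0 libraries of the same number were taken as paired, which is uncertain, and the fit just given did not use this pairing. A fit of these libraries alone called 0 members, both without a replicate block and with it (mt-Nd4l adjusted p = 0.149 with the block). That block also joined the undated libraries to day 0 by number, and these did not go together (r = -0.0282 and 1e-04 for replicates 1 and 2). The call was also lost without day 0 replicate 1 (adjusted p = 0.0559), day 0 replicate 3 (0.0797) or undated replicate 2 (0.0571), and with the undated libraries alone (log2 fold change -0.88, adjusted p = 0.243), which called mt-Co1 higher instead (1.38, adjusted p = 0.0427). Without the 2 libraries that stood apart, 3 members were called: mt-Nd4l (-1.85, adjusted p = 0.00471) and mt-Co3 (-1.18, adjusted p = 0.0102) lower and mt-Rnr2 (1.74, adjusted p = 0.03) higher. That fit also called far more genes in all, 3050 of 18591 tested genes lower and 2650 higher, so its member calls do not stand out. mt-Rnr2 had 985, 816 and 70.7 CPM in PyMT organoids day 6 and 2842 and 507 CPM in PyMT organoids undated, against 343, 452 and 325 CPM in PyMT organoids day 0, so that day 6 replicate 3 was the only cultured library below the day 0 range. The dissociation genes, all 10 called lower in this comparison, summed to 523 to 1021 CPM in the cultured PyMT libraries and 11170 to 17920 CPM in PyMT organoids day 0. Basal markers summed to 109 to 7447 CPM in the cultured PyMT libraries and 215 to 474 CPM in PyMT organoids day 0. The part of these genes was not tested.

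Cultured tumor organoids showed no called member against WT organoids. In Neu-NDL organoids, 0 of 16 members were called by edgeR or by DESeq2 and 0 had an unadjusted p under 0.05, where 2.47% of all tested genes were higher and 2.06% lower. The member with the smallest p was mt-Tp, with 37.1, 24.8 and 18.1 CPM in Neu-NDL organoids, against 44.0, 47.6 and 57.5 CPM in WT organoids (log2 fold change -0.90, SE 0.48, adjusted p = 0.311). The 7 well-counted mRNAs lay within log2 fold changes of -0.10 and 0.29, each with an SE between 0.36 and 0.57. In PyMT organoids at 6 days, 0 of 16 were called by either tool and 0 had an unadjusted p under 0.05, where 1.4% of all tested genes were higher and 2.49% lower. The member with the smallest p there was mt-Co1, whose values are given above (log2 fold change 0.64, SE 0.33, adjusted p = 0.287), and with the day 6 libraries alone its log2 fold change was -0.09.

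Between the tumor models, members were not called either. PyMT sections against Neu-NT sections gave 0 of 16 by edgeR and by DESeq2, with 0 at an unadjusted p under 0.05, where 4.57% of all tested genes were higher and 5.13% lower. The smallest p was that of mt-Rnr1, with 66.7, 199 and 96.5 CPM in PyMT sections, against 234, 119 and 282 CPM in Neu-NT sections (log2 fold change -0.81, SE 0.45, adjusted p = 0.269), and these ranges overlap. PyMT organoids at 6 days against Neu-NDL organoids gave 0 of 16 by edgeR and by DESeq2 with 2 at an unadjusted p under 0.05, where 2.42% of all tested genes were higher and 4.7% lower. The smallest p was that of the low gene mt-Atp8, with 0.380, 0.444 and 0.543 CPM in day 6 and 2.15 and 0.479 CPM in undated PyMT organoids, against 0.101, 0.281 and 0.361 CPM in Neu-NDL organoids (log2 fold change 1.64, SE 0.65, adjusted p = 0.126). Those groups do not overlap. Without the 2 libraries that stood apart, mt-Rnr1 (1.14, adjusted p = 0.0311) and mt-Tp (0.97, adjusted p = 0.0222) were called higher in the PyMT organoids. In that fit 2003 of 18591 tested genes were higher, so 2 of 16 members is near the background. Myeloid markers summed to 97.0 to 444 CPM in day 6, 216 to 267 in undated PyMT and 365 to 1883 in Neu-NDL organoids. Basal markers summed to 109 to 7447, 1620 to 2633 and 129 to 592 CPM in the same groups. Their part was not tested.

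**Figure D5:**
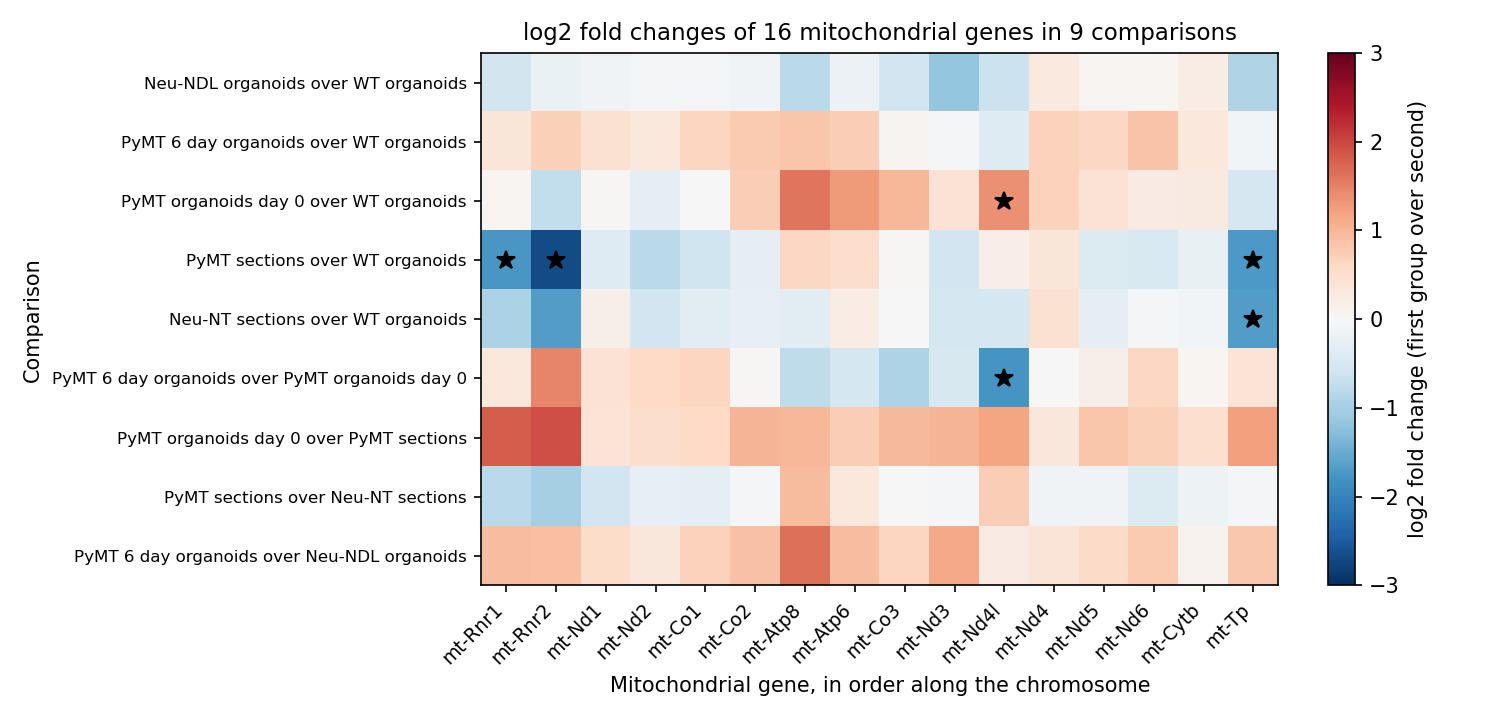
log2 fold changes of the 16 tested members (columns) in the 9 comparisons (rows), first group over second; stars mark an adjusted p under 0.05 in edgeR. The 6 stars are mt-Rnr1, mt-Rnr2 and mt-Tp in PyMT sections over WT organoids, mt-Tp in Neu-NT sections over WT organoids, and mt-Nd4l in PyMT organoids day 0 over WT organoids (higher) and in PyMT 6 day organoids over day 0 (lower).

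Some nuclear genes that serve the mitochondrial genome were called, in shares to be read against those over all tested genes given above for each comparison. Of 24 tested genes for its transcription and replication, Polrmt, the mitochondrial RNA polymerase, averaged 38.7 ± 3.28 CPM in PyMT organoids day 0 and 36.4 ± 3.13 CPM in PyMT sections, against 24.9 ± 2.68 CPM in WT organoids (SD, n = 3 each; adjusted p = 0.0249 and 0.0412). Tfam, which packages mitochondrial DNA and starts its transcription, averaged 43.3 ± 2.15 CPM in PyMT organoids day 0 and 45.7 ± 1.28 CPM in PyMT sections, against 58.4 ± 1.86 CPM in WT organoids (adjusted p = 0.0229 and 0.0452). Lig3, the DNA ligase of mitochondria, which also acts in the nucleus, averaged 66.9 ± 3.31 CPM in WT organoids. It averaged 243 ± 36.6 CPM in PyMT organoids day 0, 251 ± 88.2 CPM in PyMT sections and 176 ± 39.5 CPM in Neu-NT sections (adjusted p = 0.00448, 0.00623 and 0.0104 against WT organoids). In PyMT organoids at 6 days Lig3 averaged 123 ± 75.2 CPM (n = 5), lower than at day 0 (adjusted p = 0.0301). In this list 2 genes were higher and 1 lower in PyMT organoids day 0, 2 and 1 in PyMT sections, 3 and 1 in Neu-NT sections, 0 and 2 in Neu-NDL organoids and 0 and 0 in PyMT organoids at 6 days, each against WT organoids. Over all tested genes 5.54% were higher and 5.73% lower in PyMT organoids day 0, 6.45 and 6.05% in PyMT sections and 10.5 and 8.47% in Neu-NT sections, so with 24 genes these counts are near the background. The list median was between -0.20 and -0.06 on the log2 scale in these 5 comparisons, against 0.00 to 0.03 over all genes.

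Of 31 genes for mitochondrial RNA processing and decay, 2 were higher and 1 lower in PyMT sections than in WT organoids, near the 6.45% higher and 6.05% lower over all tested genes. Elac2, which cuts the 3′ ends of transfer RNAs, averaged 65.5 ± 16.2 CPM in PyMT sections and 36.8 ± 2.80 CPM in WT organoids (log2 fold change 0.83, SE 0.22, adjusted p = 0.0267). Pnpt1, a subunit of the mitochondrial RNA degrading complex, averaged 62.0 ± 5.38 and 36.7 ± 1.58 CPM in the same groups (0.76, SE 0.19, adjusted p = 0.023). Mtpap, the mitochondrial poly(A) polymerase, averaged 25.9 ± 2.11 CPM in PyMT sections and 34.9 ± 4.46 CPM in WT organoids (-0.43, SE 0.13, adjusted p = 0.0452). In the other 4 comparisons with WT organoids this list had 0 or 1 gene called higher and 0 lower, and its median stayed between -0.03 and 0.12.

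Among 24 regulators of mitochondrial biogenesis, Esrrg, a nuclear receptor of oxidative metabolism genes, was higher than in WT organoids in all 5 comparisons. It averaged 15.4 ± 14.4 CPM in PyMT organoids at 6 days (n = 5), 24.5 ± 0.944 in PyMT organoids day 0, 30.3 ± 10.98 in PyMT sections, 28.4 ± 15.5 in Neu-NDL organoids and 25.0 ± 11.6 in Neu-NT sections, against 2.95 ± 0.589 CPM in WT organoids (n = 3 each; adjusted p between 0.00391 and 0.0439). Prkaa2, a catalytic subunit of the energy sensor AMPK, averaged 9.997 ± 4.557 CPM in Neu-NT sections and 129.6 ± 25.6 CPM in WT organoids (adjusted p = 0.000168). The list medians were -0.29 to 0.08 in these comparisons.

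Of 80 tested proteins of the mitochondrial ribosome, 1 was higher (Mrpl38, 81.1 ± 15.5 in PyMT sections and 40.6 ± 4.84 CPM in WT organoids) and 1 lower (Mrpl3, 33.2 ± 0.467 and 44.95 ± 2.13 CPM) in PyMT sections, where 6.45% of all tested genes were higher and 6.05% lower, with a list median of 0.04. Among the 22 mitochondrial tRNA synthetases, 0 to 1 were higher and 0 to 2 lower in each comparison with WT organoids. There, 1.4 to 10.5% of all tested genes were higher and 2.06 to 8.47% lower. Pars2, which charges the transfer RNA for proline, averaged 3.60 ± 0.201 CPM in PyMT organoids day 0, where mt-Tp was not called, and 4.77 ± 1.57 CPM in Neu-NT sections, against 7.91 ± 0.289 CPM in WT organoids (adjusted p = 0.0113 and 0.0474). In PyMT sections, where mt-Tp was called lower, 0 of the 22 synthetases were called, so Pars2 was not. Of 22 cytosolic ribosomal protein genes, 15 were lower in PyMT sections than in WT organoids (median -0.93) and 8 in Neu-NT sections (median -0.57). Against the same WT organoids, 16 were lower in PyMT organoids day 0, 10 in Neu-NDL organoids and 0 in PyMT organoids at 6 days. Those medians were -0.81, -0.83 and -0.26. Over all tested genes 6.05, 8.47, 5.73, 2.06 and 2.49% were lower in these 5 comparisons, in that order. Of the 83 nuclear subunits of the oxidative phosphorylation complexes, 0 to 2 were higher and 0 to 3 lower in each of the 9 comparisons. Over all tested genes the shares in these comparisons ran from 0.428 to 10.5% higher and from 0.016 to 8.47% lower. Cox4i2, an alternative subunit of complex IV, was lower than in WT organoids in all 5 comparisons, for example 0.687 ± 0.298 CPM in PyMT sections and 6.79 ± 3.07 CPM in WT organoids.

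Over the 20 libraries, the nuclear genes whose log2 CPM most resembled the summed mitochondrial mRNAs were Jak2 (Pearson r 0.81), Copb2 (0.76), Kdf1 (0.75), Higd2a (0.74) and Tmed2 (0.74), out of 10199 genes with a mean of at least 10 CPM. Without PyMT organoids undated replicate 1 the same genes had r of 0.61, 0.39, 0.64, 0.57 and 0.84. The likeness is over 20 libraries of 7 groups that share scaling and depth, and it is a description.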

How the data were processed

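Polyadenylated RNA of 20 samples was sequenced, and the authors deposited whole-number read counts per gene for each sample, not normalized. Per the submitters' processing notes, CASAVA, FastQC, STAR, HTSeq and DESeq2 were used with mm10. Versions, annotation release, strand setting and read length are not given in the sources used here. Library totals were 17478357 to 48341438 counts on genes, and reads on no gene, ambiguous or not unique were left out of them. Of 45318 gene IDs, 44671 matched GENCODE M21 and 647 did not.

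The 18698 genes passing filterByExpr were fitted over the 7 groups with edgeR 4.0.16 (TMM, quasi-likelihood, Benjamini-Hochberg over all genes, called at an adjusted p under 0.05) in R 4.3.3, with 13 residual degrees of freedom. In PyMT 6 day organoids the day 6 and undated groups were averaged. CPM used TMM-adjusted library sizes. Shares were compared by 2-sided exact permutation tests in Python 3.11.15. The fit was tested on simulated data. Named members were those called, or else the one with the smallest p, and at most 2 genes per direction and nuclear list. Alternatives covered scaling, filter, DESeq2 1.42.0, the libraries fitted, a replicate block and leaving out libraries. Same-numbered day 6 and day 0 libraries deviated together (r = 0.287, 0.428 and 0.317), so their numbers were taken as paired. This pairing is uncertain. Day 6 libraries and PyMT sections had r of 0.0204, 0.244 and 0.336, and replicate 2 of Neu-NDL organoids and day 6 had 0.275. Libraries of different number were not compared. The main fit did not use the pairing of day 6 with day 0, and only the replicate block did. Members and lists were chosen with earlier results of these data known.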

Additional observations from a re-analysis of the deposited data

Results flagged for a closer look

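PyMT organoids undated replicate 1 lay far from the other 4 libraries of PyMT organoids at 6 days in 8 of 20 measures, by Dixon's test of the gap over the range (95% critical value 0.71). Chance alone marks about 1 in 20 groups for a single measure. The measures here are not separate tests, since the well-counted mRNAs rise and fall together (median r 0.86) and make up most of the share. The scaling factor of this library, 0.827, was also the lowest of the 20 and raises all its CPM, but not its share. The mitochondrial share of undated replicate 1 was 6.045%, against 1.49 to 2.63% in the others. It had 6675 CPM of mt-Nd2 (others 1138 to 2304), 35100 CPM of mt-Co1 (6743 to 12290), 6834 CPM of mt-Nd5 (1251 to 2328) and 1527 CPM of mt-Nd6 (229 to 520). Among the low genes it had 12.47 CPM of mt-Co2 (3.14 to 5.75), 2.146 CPM of mt-Atp8 (0.380 to 0.543) and 1.006 CPM of mt-Nd3 (0.171 to 0.388). The library also had the highest percent of reads aligned to several places, 16.3%, and the lowest on no gene, 4.77%. Their part in these values was not tested.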

How the results depend on the processing

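Of the values recomputed under an alternative, 429 for whole comparisons and 127 for single genes were kept. For shares and single genes, kept means the same direction and side of the threshold. That threshold was an unadjusted exact p under 0.05 for shares and an adjusted p under 0.05 for single genes. For counts of members called it means only an equal or similar count, so the genes called may differ. Among the rest, 36 for single genes no longer passed, and 28 for whole comparisons and 1 for a single gene changed sign. A further 33 counts of members called moved, and 4 values for whole comparisons and 2 for single genes newly passed. Exact tests of 3 against 3 libraries are among those kept and cannot change side, since their smallest p is 0.1. With no scaling factor, the median log2 fold change of all genes was -0.13 for PyMT 6 day over WT organoids, -0.19 for 6 day over day 0, 0.15 for PyMT over Neu-NT sections, -0.15 for 6 day over Neu-NDL organoids and 0.12 for PyMT sections over WT organoids. With day 6 libraries alone, the difference in mitochondrial share was -0.1715 points from WT organoids, -0.3641 from day 0 and -0.1834 from Neu-NDL organoids, and the mt-Co1 log2 fold change over WT organoids was -0.0866. The rRNA share of 6 day over WT organoids was -0.197 on the log2 scale. The cause was not tested.

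Without the 2 libraries that stood apart, chosen after seeing the data, PyMT minus Neu-NT sections was 0.256 points in mitochondrial share and 0.04195 in mt-Nd6 share, and Neu-NT sections minus WT organoids was -0.01567 in mt-Nd6 share. The rRNA share rose by 2.989 points over day 0 and 2.74 over Neu-NDL organoids. Members called were then 2 for day 0 over WT organoids, 3 for Neu-NT sections over WT organoids, 3 for 6 day over day 0, 1 for day 0 over PyMT sections and 2 for 6 day over Neu-NDL organoids. More genes were called in all as well. For day 0 over WT organoids 2374 of 18591 tested genes were higher and 2244 lower, and the numbers for the other comparisons are given in the Results. DESeq2 called 1 for day 0 over PyMT sections. With no filter 0 were called for day 0 over WT organoids. With only the libraries compared, 5 were called for day 0 over WT organoids, 0 for 6 day over day 0, 4 for PyMT sections over WT organoids (mt-Nd2 added) and 1 for Neu-NT sections over WT organoids (mt-Rnr2 in place of mt-Tp). With the replicate block as well, the counts were 4 for day 0 over WT organoids, 4 for PyMT sections over WT organoids (mt-Nd2 added), 0 for Neu-NT sections over WT organoids and 0 for 6 day over day 0. In the block fits 2417 of 16484 tested genes were higher for day 0 over WT organoids. For PyMT sections over WT organoids 1969 of 16892 were lower. Only day 6 and day 0 libraries were taken as paired from the check of their deviations, and that pairing is uncertain. Elsewhere libraries were joined by number alone.

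Leaving out 1 library at a time, the difference in mitochondrial share ranged over -0.1586 to 0.2497 points (Neu-NDL over WT organoids), -0.183 to 0.9556 (6 day over WT), -0.01183 to 0.4439 (day 0 over WT), -0.3756 to 0.763 (6 day over day 0), -0.3162 to 0.256 (PyMT over Neu-NT sections) and -0.1948 to 0.9437 (6 day over Neu-NDL). The rRNA share ranged over -0.1659 to 1.769 (6 day over WT), 1.054 to 2.989 (6 day over day 0) and 0.8056 to 2.74 (6 day over Neu-NDL). The mt-Nd6 share ranged over -0.09836 to 0.2489 (Neu-NDL over WT), -0.1832 to 0.3734 (day 0 over WT), -0.07085 to 0.2054 (PyMT sections over WT), -0.01567 to 0.3147 (Neu-NT sections over WT), -0.07485 to 0.4818 (6 day over day 0), -0.2095 to 0.3471 (day 0 over PyMT sections) and -0.2103 to 0.04195 (PyMT over Neu-NT sections). Members called were 0 in every such fit for day 0 over WT, 0 to 3 for PyMT sections over WT, 0 to 1 for Neu-NT sections over WT, 0 to 3 for 6 day over day 0 and 0 to 1 for 6 day over Neu-NDL. The 3 for 6 day over day 0 came without day 6 replicate 3, where 1922 of 18684 tested genes were higher and 2605 lower.

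Differences in the 6 low mRNAs rest on 2 to 372 counts per library, and 3 against 3 libraries cannot pass an exact test.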
